A study of Mus musculus with 9 samples.

Results

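The comparison set TNF-treated BAF-knockdown fibroblasts against unstimulated control fibroblasts, so that knockdown and cytokine changed together. Its members were the 3 arrays whose titles name BAF knockdown with stimulation and the 3 whose titles name non-stimulated control cells, or 6 of the 9 arrays of the series, and arrays with the same number in the title were treated as a pair. All cells were 3T3 fibroblasts, an immortalised mouse embryonic line, grown subconfluently. TNF-treated cells had received mouse TNF-alpha at 5 ng per ml for 1 h. The knockdown cells stably expressed 1 short hairpin RNA against a sequence shared by the mRNAs of Brg1 and Brm, from a mouse U6 promoter in a retroviral vector that also expresses GFP, and had been sorted for high GFP. The sources used here do not say whether the control cells carried a vector without the hairpin. The remaining 3 arrays, of TNF-treated control cells, were used for the spread between arrays and as values set beside the comparison. Unstimulated knockdown cells were not analysed here, so a part of a difference that belongs to the knockdown alone cannot be told apart from one that belongs to the response to TNF in knockdown cells.

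TNF binds its receptors on fibroblasts and within minutes releases NF-kB, a family of dimeric transcription factors, from its cytoplasmic inhibitors, while MAP kinases activate AP-1 and other factors. The early targets include chemokines that recruit neutrophils and monocytes, immediate early transcription factors, and the inhibitors that switch the pathway off again. BAF (SWI/SNF) complexes use the ATPase Brg1 or Brm, encoded by Smarca4 and Smarca2, to slide or evict nucleosomes, and are known for opening chromatin at inducible promoters and at enhancers that keep a cell type's own genes active.

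Promoters of 5 genes that are described below are shown first, because the comparison concerns TNF treatment and a complex known for acting at inducible promoters. Whether BAF acts at these 5 promoters was not tested. They were chosen from the named genes after the values were seen: 2 chemokine genes and 2 genes of NF-kB inhibitors that rose, and Cldn1, which rose too and whose values with TNF alone were unlike theirs. Each line gives the 250 bases before the RefSeq start, 5′ to 3′ on the gene's own strand, from assembly GRCm38.p6, and capitals mark matches to the NF-kB consensus on either strand (overlapping matches run together). The windows lie at chr5:92348890-92349139 on the minus strand for Cxcl10, at chr5:90903649-90903898 on the plus strand for Cxcl2, at chr10:19015411-19015660 on the minus strand for Tnfaip3, at chr12:55492648-55492897 on the minus strand for Nfkbia and at chr16:26371840-26372089 on the minus strand for Cldn1.
Cxcl10: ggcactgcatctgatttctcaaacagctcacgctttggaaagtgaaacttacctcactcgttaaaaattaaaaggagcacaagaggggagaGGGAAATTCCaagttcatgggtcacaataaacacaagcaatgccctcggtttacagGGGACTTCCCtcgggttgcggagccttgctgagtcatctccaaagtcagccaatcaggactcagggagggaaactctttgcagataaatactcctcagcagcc
Cxcl2: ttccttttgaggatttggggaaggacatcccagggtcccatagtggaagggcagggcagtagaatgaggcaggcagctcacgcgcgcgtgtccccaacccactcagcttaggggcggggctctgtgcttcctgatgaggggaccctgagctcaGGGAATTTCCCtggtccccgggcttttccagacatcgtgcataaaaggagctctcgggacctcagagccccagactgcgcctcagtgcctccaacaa
Tnfaip3: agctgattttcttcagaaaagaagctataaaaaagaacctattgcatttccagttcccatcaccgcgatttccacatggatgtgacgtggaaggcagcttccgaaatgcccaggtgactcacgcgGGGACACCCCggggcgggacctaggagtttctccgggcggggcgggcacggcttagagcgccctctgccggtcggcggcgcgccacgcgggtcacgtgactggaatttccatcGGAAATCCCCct
Nfkbia: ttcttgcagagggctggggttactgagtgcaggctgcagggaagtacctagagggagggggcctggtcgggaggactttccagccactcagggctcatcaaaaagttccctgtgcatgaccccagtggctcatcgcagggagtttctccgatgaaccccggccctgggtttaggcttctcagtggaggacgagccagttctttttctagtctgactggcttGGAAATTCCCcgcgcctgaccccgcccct
Cldn1: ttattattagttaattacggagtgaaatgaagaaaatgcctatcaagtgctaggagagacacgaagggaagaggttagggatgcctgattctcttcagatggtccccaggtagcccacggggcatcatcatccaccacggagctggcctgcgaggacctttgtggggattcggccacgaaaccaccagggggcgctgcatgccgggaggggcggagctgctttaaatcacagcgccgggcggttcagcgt

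In Cxcl10 the matches lay 159 to 150 and 103 to 94 bases before the start, in Tnfaip3 125 to 116 and 12 to 3 bases before it, and in Nfkbia 29 to 20 bases before it. Cxcl2 held 2 overlapping matches that began 97 and 96 bases before the start. The Cldn1 window held no match, which says only that these letters were not found there. RefSeq listed 2 windows for Tnfaip3, of which the first was used. A match is a string of letters and not a measured binding site.

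Transcript levels are RMA log2 signals, with 1 value per transcript cluster, the array's set of probes for a gene. Array medians ran from 7.77 to 7.83 and correlations between the 9 arrays from 0.992 to 0.998. Differences are knockdown with TNF minus unstimulated control on the log2 scale, given with the standard error of a limma fit, and a gene was called where its Benjamini-Hochberg adjusted p over 19698 genes was under 0.05. In these bulk samples, fewer cells of a type and less RNA per cell cannot be told apart. The tissue label was checked against markers. The 19 measured leukocyte markers had a median level of 6.47 in unstimulated cells and the 22 epithelial and endothelial markers one of 7.28, against 12.70 for 13 fibroblast markers. The first quartile over the 19698 genes, meant wherever a first quartile is named below, lay between 6.59 and 6.67 in the arrays. Leukocyte markers were not uniformly low. Cd14 (9.62) and Cd68 (8.31) lay above the array medians in unstimulated cells, while Nkg7 (6.47) and Ly6g (5.58) lay below the first quartile. Vim, an intermediate filament gene on the fibroblast list, stood at 13.98 in both groups compared. Of the 13 fibroblast markers 5 were called lower in the knockdown group, with a list median difference of -0.21. Over all genes 3.36% were lower, and 5.83% in the brightest of 4 equal classes of the mean level. Without the pairing of arrays 0 of the 13 markers were called lower.

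The hairpin's targets were examined first. Smarca4 (transcript cluster 10583697), the gene of Brg1, stood at 11.66, 11.56 and 11.63 in unstimulated control arrays 1, 2 and 3, and at 10.50, 10.64 and 10.25 in the knockdown arrays of the same numbers. All knockdown arrays lay below all control arrays, and the gene fell 2.22-fold (-1.15 ± 0.08, limma adjusted p = 0.000476). In TNF-treated control cells its mean was 11.57. Smarca2 (transcript cluster 10462237), the gene of Brm, stood at 9.18, 9.94 and 9.22 in the unstimulated and at 9.12, 9.38 and 9.12 in the knockdown arrays. These groups overlapped, and the difference of -0.24 ± 0.10 was not called (limma adjusted p = 0.273, 95% interval before adjustment -0.47 to -0.01). Whether the probes of either cluster lie outside the part the hairpin cuts was not tested. The paper measured both transcripts by quantitative RT-PCR, another measure than the array, and reports that the hairpin lowered both. The 26 other measured BAF subunits, the scaffold and accessory proteins of the complex, differed by -0.17 (Dpf2) to 0.17 (Bicral) with a median of -0.03. By limma 0 of them were called, 1 fell short of that with an unadjusted p under 0.05 (lower), and the methods' t-test called 0.

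Between TNF-treated knockdown and unstimulated control cells, 390 genes were higher, 1.98% of all genes tested, and 662 were lower, or 3.36%. The called rises ran from 0.20 to 3.64 on the log2 scale with a median of 0.49, and 57 exceeded 1. The called falls ran from -2.14 to -0.20 with a median of -0.43, and 47 exceeded 1 in size. All called genes differed in the same direction in each of the 3 pairs, as did 6364 of all 19698 genes. A fit with the pair as a block favours such genes, so this is no separate support. In 305 of the higher genes the knockdown arrays all lay above the unstimulated ones, an arrangement seen in 7.01% of all genes, and in 485 of the lower genes they all lay below, as in 7.00% of all genes. The median unstimulated level was 9.24 for the genes that rose and 9.83 for those that fell, against 7.99 for all genes. In 4 equal classes of the mean level, from the dimmest to the brightest, 16, 42, 171 and 161 genes rose and 11, 69, 295 and 287 fell. Over all genes the median difference was 0.01, with quartiles at -0.06 and 0.07.

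**Figure D1:**
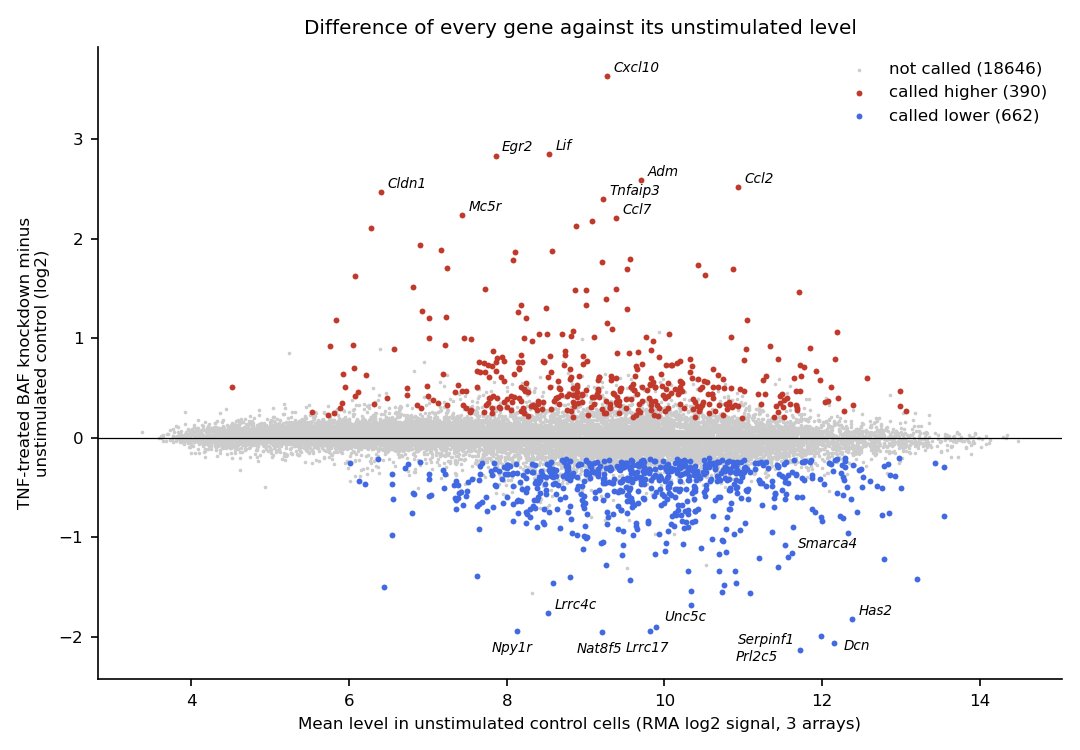
Difference between TNF-treated BAF-knockdown and unstimulated control cells (y axis, log2) against the mean unstimulated level (x axis, RMA log2 signal, 3 arrays) for 19698 genes, with called genes in colour. The rises reach 3.64 (Cxcl10) and the falls -2.14 (Prl2c5), and both colours are sparse below a level of about 7.

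The count of called genes depended on the pairing of arrays and on single arrays. Without the pair as a block, 102 genes were higher (0.518%) and 118 lower (0.599%), all of them among the genes called with it. Leaving out knockdown array 2 raised the counts to 697 and 1048. Leaving out knockdown array 1 lowered them to 157 and 265, unstimulated array 1 to 148 and 236, unstimulated array 3 to 167 and 390, and TNF-treated control array 1 to 251 and 410. Leaving out unstimulated array 2 gave 320 lower genes. The pairs themselves were not equally far apart: 69, 46 and 115 genes were more than 1 higher in pairs 1, 2 and 3, and 82, 61 and 77 more than 1 lower. Smarca4 differed by -1.16, -0.93 and -1.37 in the same pairs, and Smarca2 by -0.05, -0.57 and -0.10. Pair 2, with the fewest large differences, thus had the smallest fall of Smarca4 and the largest of Smarca2. That fall of Smarca2 went with a high unstimulated array (9.94, against 9.18 and 9.22). Among the knockdown arrays, array 2 had the highest level of both Smarca4 (10.64) and Smarca2 (9.38). The part of the level of knockdown in the unequal pairs was not tested.

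Chemokines, the secreted proteins that attract leukocytes, were 5 of the 15 largest rises, and 1 of them had the largest. Cxcl10, a chemokine for T cells and natural killer cells (transcript cluster 10531415), stood at 9.02, 8.45 and 10.32 in the unstimulated arrays and at 12.65, 12.64 and 13.43 in the knockdown arrays. The rise was 12.4-fold (3.64 ± 0.19, limma adjusted p = 0.000126). Ccl2, a monocyte chemoattractant (transcript cluster 10379511), went from 10.99, 10.53 and 11.28 to 13.45, 13.34 and 13.59, a rise of 5.73-fold (2.52 ± 0.11, adjusted p = 6e-05). Its neighbour Ccl7, which attracts monocytes too, stood at 9.50, 9.20 and 9.46 and then at 11.03, 12.39 and 11.38 (2.21 ± 0.26, adjusted p = 0.0034). Cxcl2, a neutrophil chemoattractant (transcript cluster 10523156), stood at 6.21, 6.36 and 6.27, below the first quartile of each array, and at 8.75, 8.47 and 7.95 in the knockdown arrays (2.11 ± 0.16, adjusted p = 0.000501). Whether that unstimulated level exceeded background was not tested. Ccl20, which attracts cells that carry the receptor Ccr6, rose by 2.01, 1.59 and 2.05 in the pairs, so that no pair stood far from the others (1.88 ± 0.09, adjusted p = 6e-05).

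Cytokine and growth factor genes were among the other large rises. Lif, a cytokine of the interleukin-6 family (transcript cluster 10373918), stood at 8.76, 8.14 and 8.72 in unstimulated and at 11.91, 10.26 and 11.99 in knockdown arrays (2.85 ± 0.21, limma adjusted p = 0.000517). Csf2, the granulocyte-macrophage growth factor, stood at 6.79, 7.13 and 6.76 and at 9.01, 7.90 and 9.58 (1.94 ± 0.33, adjusted p = 0.0149). Its call was lost without the block (adjusted p = 0.0734) and without unstimulated array 1, unstimulated array 3 or knockdown array 1 (0.0997, 0.0647 and 0.104). Ereg, the epidermal growth factor receptor ligand epiregulin, went from 9.27, 8.63 and 9.33 to 11.83, 10.69 and 11.25 (2.18 ± 0.15, adjusted p = 0.000342). Adm, the precursor of the vasodilator adrenomedullin (transcript cluster 10556297), went from 9.99, 9.50 and 9.62 to 12.32, 12.27 and 12.29, a 6.01-fold rise to nearly the same level in all knockdown arrays (2.59 ± 0.14, adjusted p = 0.000144).

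Of 32 measured chemokines and cytokines, 17 rose (against 1.98% of all genes), Cxcl12 fell (-0.39 ± 0.07) and 14 were not called. The list had a median difference of 0.79, against 0.01 for all genes. Without the block 10 rose. Among the members that did rise, 4 that were chosen after their values were seen show how unlike the arrays with TNF alone they could be. Ccl5, a chemokine for T cells, stood 1.63 ± 0.09 higher with knockdown and TNF and 0.54 ± 0.09 higher with TNF alone, and Cxcl11, a ligand of the same receptor as Cxcl10, 1.20 ± 0.17 and 0.10 ± 0.17 higher. Il1a, which encodes interleukin-1α, stood 1.62 ± 0.31 and 3.32 ± 0.31 higher, and Il6 0.86 ± 0.15 and 1.81 ± 0.15. The differences between the TNF-treated groups were called for all 4 (limma adjusted p = 0.00149, 0.0155, 0.0309 and 0.0178), upward for Ccl5 and Cxcl11 and downward for Il1a and Il6. All 4 rises in the comparison itself lost their call without the block (adjusted p = 0.154, 0.0978, 0.132 and 0.407). Comparisons with the TNF-treated control arrays share arrays with the one described here, so they are given as values side by side.

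**Figure D2:**
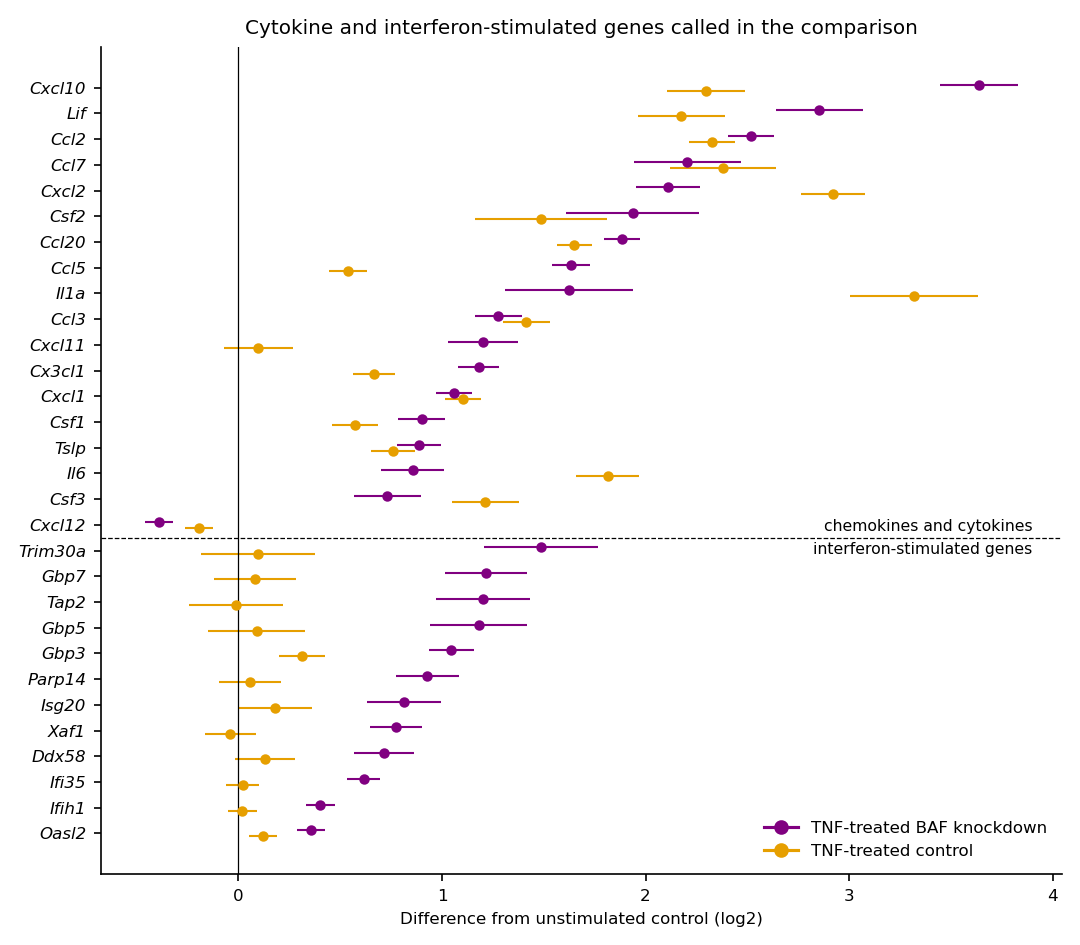
Chemokine, cytokine and interferon-stimulated genes called in the comparison (y axis) and their differences from unstimulated cells (x axis, log2), in TNF-treated BAF-knockdown and TNF-treated control cells. Points show fitted values and bars extend 1 standard error to each side (3 arrays per group). Cxcl10 lies at 3.64 and 2.30, Il1a at 1.62 and 3.32, and the interferon-stimulated gene Trim30a at 1.49 and 0.10.

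The values with TNF alone can be set beside the other large rises. In TNF-treated control cells 72 genes were higher than unstimulated (0.366% of all genes) and 6 lower (0.0305%), and between the TNF-treated groups 193 genes were higher with the knockdown (0.980%) and 459 lower (2.33%). Cxcl10 differed by 2.30 ± 0.19 with TNF alone and by a further 1.34 ± 0.19 with the knockdown, both called (limma adjusted p = 0.0034 and 0.0117). Adm had 1.73 and 0.85, again both called (0.0034 and 0.0217). Mc5r, a melanocortin receptor gene, stood at 7.40, 6.96 and 7.95 in unstimulated and at 9.45, 9.33 and 10.24 in knockdown arrays (2.24 ± 0.10), of which 0.86 was seen with TNF alone and 1.37 between the TNF-treated groups, both called (0.0129 and 0.000979). Ccl2 had 2.33 with TNF alone and 0.19 ± 0.11 more with the knockdown, the latter not called (0.579), and Egr2 2.75 and 0.09 ± 0.29 (0.956 for the latter). Cxcl2 had 2.92 with TNF alone and -0.81 ± 0.16 between the TNF-treated groups, a fall that was called (0.0364). Lif had 2.17 and 0.68 ± 0.21, the latter not called (0.181). Tnfaip3 had 2.88 with TNF alone and -0.48 ± 0.12 between the TNF-treated groups, which was not called (0.0774), and for Ereg these values were 2.59 and -0.41 ± 0.15 (0.265 for the latter).

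Cldn1, which encodes the tight junction protein claudin-1 (transcript cluster 10438769), had another pattern. It stood at 6.40, 6.53 and 6.27 in unstimulated, at 6.0, 6.38 and 6.20 in TNF-treated control and at 9.10, 8.02 and 9.48 in TNF-treated knockdown arrays. The knockdown arrays lay above all 6 others, and the ranges of both control groups overlapped. The rise was 5.53-fold (2.47 ± 0.31, limma adjusted p = 0.00421), while TNF-treated differed from unstimulated control cells by -0.21 ± 0.31 and the TNF-treated groups by 2.67 ± 0.31 (adjusted p = 0.00476). Its level in both control groups was below the first quartile of the arrays, so the size of the fold is uncertain. Of the 22 epithelial and endothelial markers, a list that does not hold Cldn1, 21 lay above 0. Their median difference was 0.05, against 0.01 for all genes, with a range from -0.04 to 0.56. In pairs 1, 2 and 3 the medians of these markers were 0.19, 0.02 and -0.02, so that the shift rested on pair 1. By limma 0 were called and by the methods' t-test 0, while 1 was higher at an unadjusted p below 0.05. This was Flt1, an endothelial receptor for vascular endothelial growth factor, which stood at 7.61, 7.91 and 7.99 in unstimulated and at 8.34, 8.03 and 8.83 in knockdown arrays (0.56 ± 0.13, limma adjusted p = 0.057). The groups did not overlap, and Flt1 passed the threshold with array weights, median centring, no dim genes, or without unstimulated array 2 or knockdown array 2 (adjusted p = 0.0406, 0.0487, 0.0436, 0.0399 and 0.0047). The epithelial markers Epcam and Cldn3 differed by 0.10 ± 0.06 and 0.13 ± 0.08. The part of such cells in the level of Cldn1 was not tested.

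**Figure D3:**
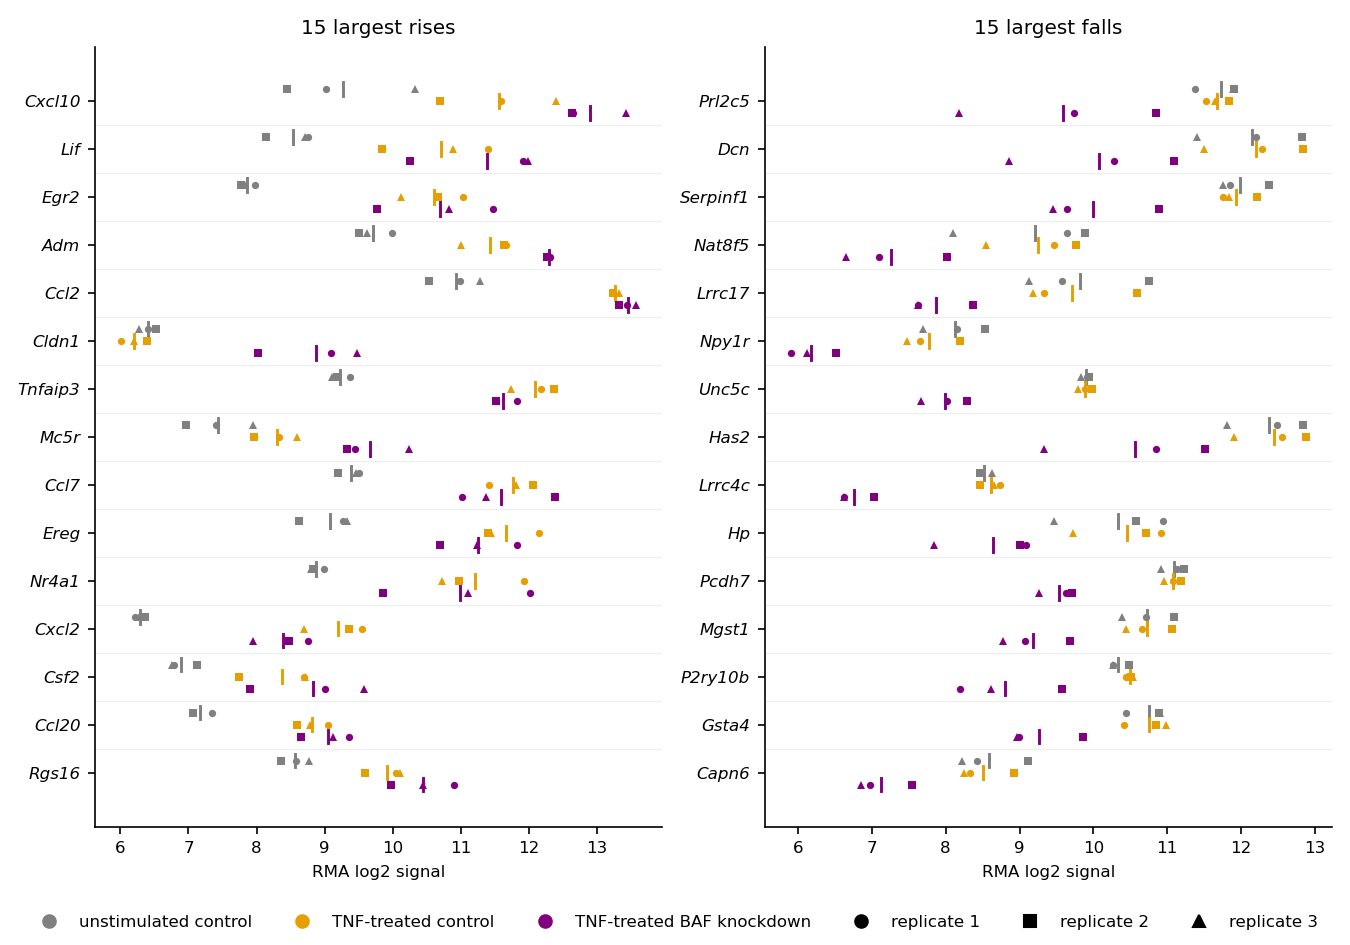
RMA log2 level (x axis) of the 15 largest rises and the 15 largest falls (y axis) in each of the 9 arrays, with colour for the group, shape for the replicate number and a bar at each group mean. Cldn1 lies between 6.0 and 6.53 in all 6 control arrays, and the genes that fell lie at similar levels in both control groups.

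Genes that act on NF-kB itself, a list with 27 measured members, rose in 14 cases (against 1.98% of all genes), and the other 13 were not called. Tnfaip3, whose product A20 edits ubiquitin chains and restrains the pathway (transcript cluster 10368144), stood at 9.38, 9.18 and 9.11 in unstimulated and at 11.83, 11.52 and 11.52 in knockdown arrays. The pairs differed by nearly the same amount, 2.45, 2.34 and 2.41 (2.40 ± 0.12, limma adjusted p = 7.01e-05). Nfkbie (1.69 ± 0.06) and Nfkbia (1.47 ± 0.08), which encode the cytoplasmic inhibitors IκBε and IκBα, and Birc3, a ubiquitin ligase of the receptor complex (1.29 ± 0.10), followed. Between the TNF-treated groups Nfkbie and Nfkbia differed by 0.03 ± 0.06 and 0.08 ± 0.08, neither called. The list had a median difference of 0.51, with members from -0.21 to 2.40, and 11 rose without the block.

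Immediate early genes, which need no new protein synthesis to be induced, were also among those that rose. Egr2, a zinc-finger transcription factor (transcript cluster 10363735), stood at 7.98, 7.77 and 7.82 in unstimulated and at 11.48, 9.78 and 10.83 in knockdown arrays (2.84 ± 0.29, limma adjusted p = 0.00216). Nr4a1, an orphan nuclear receptor gene, stood at 8.99, 8.83 and 8.80 and at 12.02, 9.86 and 11.11 (2.12 ± 0.34, adjusted p = 0.0117). Knockdown array 2 was the lowest of its group for both genes. Nr4a1 lost its call without the block (0.102) and without unstimulated array 1, unstimulated array 3 or knockdown array 1 (0.056, 0.0551 and 0.0854). Rnd1, a small GTPase gene, rose by 1.79 ± 0.11 and Egr1 by 1.77 ± 0.22. Rgs16, a regulator of G protein signalling outside this list, went from 8.57, 8.36 and 8.78 to 10.90, 9.97 and 10.46 (1.88 ± 0.13, adjusted p = 0.000342). Of the 40 measured immediate early and early response genes, 20 rose (against 1.98% of all genes) and 20 were not called. Above 0 lay 39, and the median difference was 0.55. Without the block 12 rose.

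Among 28 inflammatory effectors and adhesion genes 8 rose and 3 fell, against 1.98% and 3.36% of all genes, with a median difference of 0.27. Without the block or without unstimulated array 1, 5 rose. Beside Adm and Ereg, the transcription factor Irf1 went from 10.86, 10.93 and 10.81 to 12.53, 12.47 and 12.70 (1.70 ± 0.08, limma adjusted p = 6e-05), and its second, dimmer transcript cluster differed by 0.57 ± 0.07. Those that fell were Has2, a hyaluronan synthase gene, Hp, which encodes the haemoglobin-binding acute phase protein haptoglobin, and Saa3, an acute phase serum amyloid gene (-0.76 ± 0.14). None of these falls was called without the block (adjusted p = 0.182, 0.176 and 0.487).

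Interferon-stimulated genes, known for antiviral defence and antigen presentation, rose in part. Of 37 measured members 12 rose (against 1.98% of all genes) and 25 were not called. Above 0 lay 32, and the median difference was 0.32. Trim30a, an antiviral TRIM family gene, stood at 9.04, 9.87 and 7.70 in unstimulated and at 11.05, 10.37 and 9.65 in knockdown arrays, so that the groups overlapped although each pair differed upward (1.49 ± 0.28, limma adjusted p = 0.0235, or 0.349 without the block). Tap2, a subunit of the peptide transporter for MHC class I, stood at 8.24, 8.29 and 8.18 and at 9.43, 8.85 and 10.05 (1.20 ± 0.23, adjusted p = 0.0248, or 0.061 without the block). The guanylate-binding protein genes Gbp7 and Gbp5 rose by 1.22 ± 0.20 and 1.18 ± 0.24. Without the block Gbp7 kept its call (limma adjusted p = 0.0425) and Gbp5 did not (0.1). Gbp5 stood at 5.78, 5.76 and 5.96 in unstimulated arrays, below the first quartile, so the size of its fold is uncertain. None of these 4 was called without unstimulated array 1 (adjusted p = 0.14, 0.126, 0.0903 and 0.156, in the order named), without unstimulated array 3 (0.114, 0.123, 0.075 and 0.137) or without knockdown array 1 (0.128, 0.136, 0.0766 and 0.136). In TNF-treated control cells Trim30a, Tap2, Gbp7 and Gbp5 differed from unstimulated cells by 0.10, -0.01, 0.08 and 0.09, and the whole list had a median of 0.04 there and of 0.22 between the TNF-treated groups. The count of 12 depended on single arrays. It was 4 without the block, 19 without knockdown array 2, 2 without array 1 of either the knockdown or the unstimulated group, 3 when unstimulated array 3 and 6 when TNF-treated control array 1 was left out. Leukocyte markers had a median difference of 0.05 over 19 genes, with 0 called by limma and 0 by the methods' t-test, while at an unadjusted p below 0.05 there were 1 higher and 2 lower.

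Among the largest falls were those of a netrin receptor, a netrin-G ligand and a protocadherin. Unc5c, a receptor for the guidance protein netrin-1 (transcript cluster 10496519), stood at 9.91, 9.94 and 9.84 in unstimulated and at 8.01, 8.29 and 7.67 in knockdown arrays, a 3.74-fold fall with both groups tight (-1.90 ± 0.09, limma adjusted p = 7.01e-05). Lrrc4c, the ligand of netrin-G1 (transcript cluster 10474096), stood at 8.47, 8.47 and 8.63 and at 6.63, 7.03 and 6.63 (-1.76 ± 0.12, adjusted p = 0.000406). Pcdh7, a protocadherin gene (transcript cluster 10521972), went from 11.13, 11.22 and 10.92 to 9.63, 9.70 and 9.27 (-1.56 ± 0.06, adjusted p = 5.17e-05). These 3 kept their call without the block, at adjusted p = 0.000509, 0.000438 and 0.00112. They stood within 0.10 of their unstimulated means in TNF-treated control cells, with differences of -0.01, 0.09 and -0.02.

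Of the 36 measured axon guidance receptors, netrin ligands and protocadherins, 7 fell and 2 rose, against 3.36% and 1.98% of all genes, and 27 were not called. The median difference was -0.01, against 0.01 for all genes. The other falls were those of Pcdh9 (-0.76 ± 0.05), Robo2 (-0.64 ± 0.11), Nrp1 (-0.60 ± 0.10) and Slit3 (-0.22 ± 0.05), and the rises those of Nrp2 (0.56 ± 0.11) and Pcdh18 (0.36 ± 0.06). Without the block, or without unstimulated array 2, 4 fell, and neither rise was called without the block or without unstimulated array 1, unstimulated array 3 or knockdown array 1. A second transcript cluster of Pcdh9 differed by -0.85 ± 0.06.

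Genes of the extracellular matrix were among those that fell. Dcn, which encodes the collagen-binding proteoglycan decorin (transcript cluster 10365974), stood at 12.20, 12.83 and 11.40 in unstimulated and at 10.28, 11.09 and 8.86 in knockdown arrays. Array 3 was the lowest in both groups, and the fall was 4.18-fold (-2.06 ± 0.16, limma adjusted p = 0.00053). Has2, which makes hyaluronan at the plasma membrane, went from 12.49, 12.84 and 11.82 to 10.84, 11.51 and 9.33 (-1.82 ± 0.21, adjusted p = 0.00324), and Nid1, a basement membrane linker, from 13.14, 13.48 and 13.00 to 11.97, 12.59 and 10.81 (-1.42 ± 0.23, adjusted p = 0.0133). These 3 depended on the pairing and were not called without it (adjusted p = 0.178, 0.182 and 0.159), and Nid1 was not called without unstimulated array 1, unstimulated array 3 or knockdown array 1 either (0.0655, 0.0658 and 0.0663). Col12a1, a fibril-associated collagen gene, was tighter, from 11.32, 11.21 and 11.09 to 10.01, 10.07 and 9.91 (-1.21 ± 0.05, adjusted p = 6e-05, or 0.000509 without the block).

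Of 52 measured collagen and extracellular matrix genes 15 fell, against 3.36% of all genes, and 37 were not called, with a median difference of -0.14. Without the block 5 fell, and the count was 8 without knockdown array 1 and 9 without unstimulated array 1. The falls included Col3a1 (-1.11), Col6a3 (-0.94), Postn (-0.79), Vcan (-0.75) and Col1a2 (-0.49), while Col1a1 (-0.35 ± 0.09) and Fn1 (-0.19 ± 0.08) were not called. Fibroblast markers, several of which are matrix genes too, fell in 5 of 13 cases, S100a4 (-1.21 ± 0.20), Col3a1, Pdgfra (-0.61), Col1a2 and P4hb (-0.26), with a median of -0.21. All 5 were called only with the block, and the count was 3 without unstimulated array 1, unstimulated array 3 or knockdown array 1. Vim differed by less than 0.01.

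Other large falls came from genes of several kinds. Serpinf1, a secreted anti-angiogenic serpin (transcript cluster 10388430), went from 11.84, 12.38 and 11.75 to 9.64, 10.89 and 9.46 (-1.99 ± 0.18, limma adjusted p = 0.00115). Npy1r, a receptor for neuropeptide Y, went from 8.15, 8.53 and 7.70 to 5.90, 6.52 and 6.13 (-1.94 ± 0.11, adjusted p = 0.000158), where the knockdown arrays fell below the first quartile. Hp stood at 10.94, 10.58 and 9.47 and at 9.09, 9.01 and 7.84, a difference of -1.86, -1.57 and -1.63 in the pairs (-1.68 ± 0.07, adjusted p = 5.54e-05). Array 3 was low in both groups, and Hp was not called without the pairing (0.176). The glutathione transferases Mgst1 (-1.55 ± 0.06) and Gsta4 (-1.48 ± 0.17), the secreted leucine-rich repeat protein gene Lrrc17 (-1.95 ± 0.14), the nucleotide receptor family gene P2ry10b (-1.54 ± 0.22) and the calpain family gene Capn6 (-1.46 ± 0.06) fell as well. Of these, Lrrc17 and Capn6 were not called without the block (0.122 and 0.0502), and P2ry10b was not called without unstimulated array 1 (0.0585).

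A pair of the largest falls belongs to families of near-identical genes, in which probes can be shared, and is uncertain as to the gene. Prl2c5, a proliferin gene, stood at 11.38, 11.91 and 11.89 in unstimulated and at 9.74, 10.84 and 8.18 in knockdown arrays, the largest fall of all (-2.14 ± 0.45, limma adjusted p = 0.0367). Its pairs differed more than those of the other 14 largest falls, with values of -1.63, -1.07 and -3.71, and it was not called without the block (0.133), nor when unstimulated array 1, 2 or 3, TNF-treated control array 1, 2 or 3 or knockdown array 1 was left out (0.127, 0.075, 0.154, 0.0862, 0.0525, 0.0587 and 0.132). Nat8f5, an N-acetyltransferase family gene, went from 9.64, 9.89 and 8.10 to 7.10, 8.01 and 6.65 (-1.95 ± 0.18, adjusted p = 0.00128, or 0.158 without the block). In the 15 largest falls TNF-treated differed from unstimulated control cells by -0.35 (Npy1r) to 0.16 (P2ry10b), and the TNF-treated groups by -2.13 (Dcn) to -1.38 (Capn6).

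**Figure D4:**
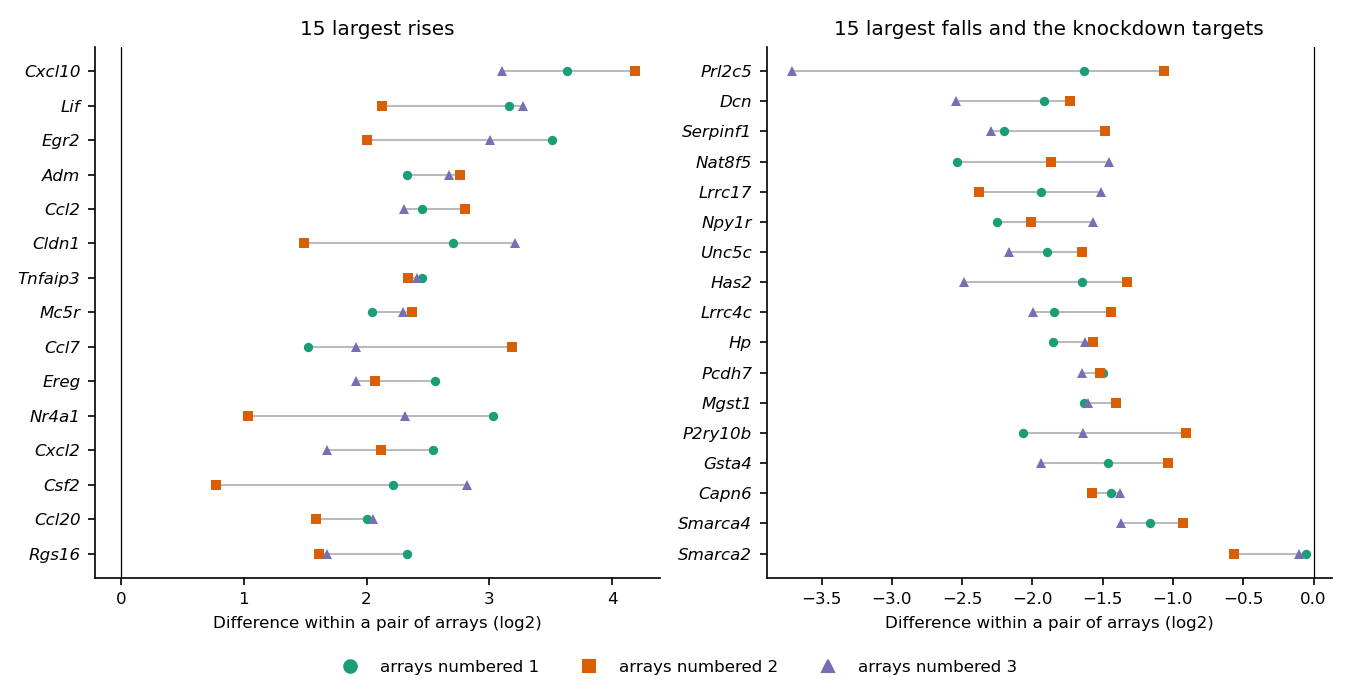
Difference between TNF-treated BAF-knockdown and unstimulated control arrays of the same number (x axis, log2) for the 15 largest rises, the 15 largest falls and the knockdown targets (y axis), with a shape per pair and a line over their range. Every pair of the 30 genes keeps its sign, which a call with the pair as a block favours. Tnfaip3 spans 2.34 to 2.45, Csf2 0.77 to 2.82 and Prl2c5 -3.71 to -1.07.

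The remaining lists held few called genes, and over all genes 1.98% rose and 3.36% fell. In the brightest of the 4 level classes these shares were 3.27% and 5.83%. Among 24 contractile genes and targets of SRF, the serum response factor, Ankrd1 rose by 1.74 ± 0.15, Srf itself by 0.44 ± 0.10 and the smooth muscle actin gene Actg2 fell by 1.30 ± 0.13 on the log2 scale, with a list median of 0.01. Ankrd1 and Srf were not called without the block (limma adjusted p = 0.168 and 0.29). Of 23 adipocyte and preadipocyte genes 4 fell, the transcription factor gene Ebf1 (-0.996 ± 0.15), the sorting receptor gene Sort1 (-0.84 ± 0.05), the fatty acid carrier gene Fabp4 (-0.75 ± 0.07) and Pdgfra, and the median was 0.01. Ebf1 and Sort1 were still called without the block, but Ebf1 was not called without unstimulated array 1, unstimulated array 3 or knockdown array 1 (adjusted p = 0.058, 0.0508 and 0.0722).

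Of 44 cell cycle and DNA replication genes Ccnd2 (0.61 ± 0.06) and Cdk6 (0.20 ± 0.05), a cyclin and a kinase of the G1 phase, rose. Over all genes 1.98% rose, and 3.27% in the brightest of the 4 level classes. The list's median difference was 0.05. The call of Cdk6 was lost when any single array was left out. Of 24 p53 targets and apoptosis regulators 5 rose and 1 fell, against 1.98% and 3.36% of all genes. Without the block 2 rose. Without array 1 of either the unstimulated or the knockdown group 2 rose, and without unstimulated array 3, 3 rose. Btg2, an antiproliferative gene that is also an immediate early gene, rose by 1.49 ± 0.21, the kinase gene Plk3 by 1.30 ± 0.11 and Gadd45a by 0.62 ± 0.07, and the death receptor genes Fas and Tnfrsf10b by 0.51 each. Btg2 was not called without unstimulated array 1 or knockdown array 1 (limma adjusted p = 0.0561 and 0.069). The pro-apoptotic Bcl2l11 fell by 0.62 ± 0.08. Fads1, a fatty acid desaturase gene (-0.29), was the gene called among 28 of sterol and fatty acid synthesis, and Dnajc3, an endoplasmic reticulum chaperone gene (-0.30), that among 27 of unfolded protein and amino acid stress, so that 1 gene fell in each list, against 3.36% of all genes. The list medians were 0.17 and -0.05, and the former rested on pair 2, with medians of -0.05, 0.38 and 0.005 in the pairs. Neither call held without the block (adjusted p = 0.13 and 0.18).

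**Figure D5:**
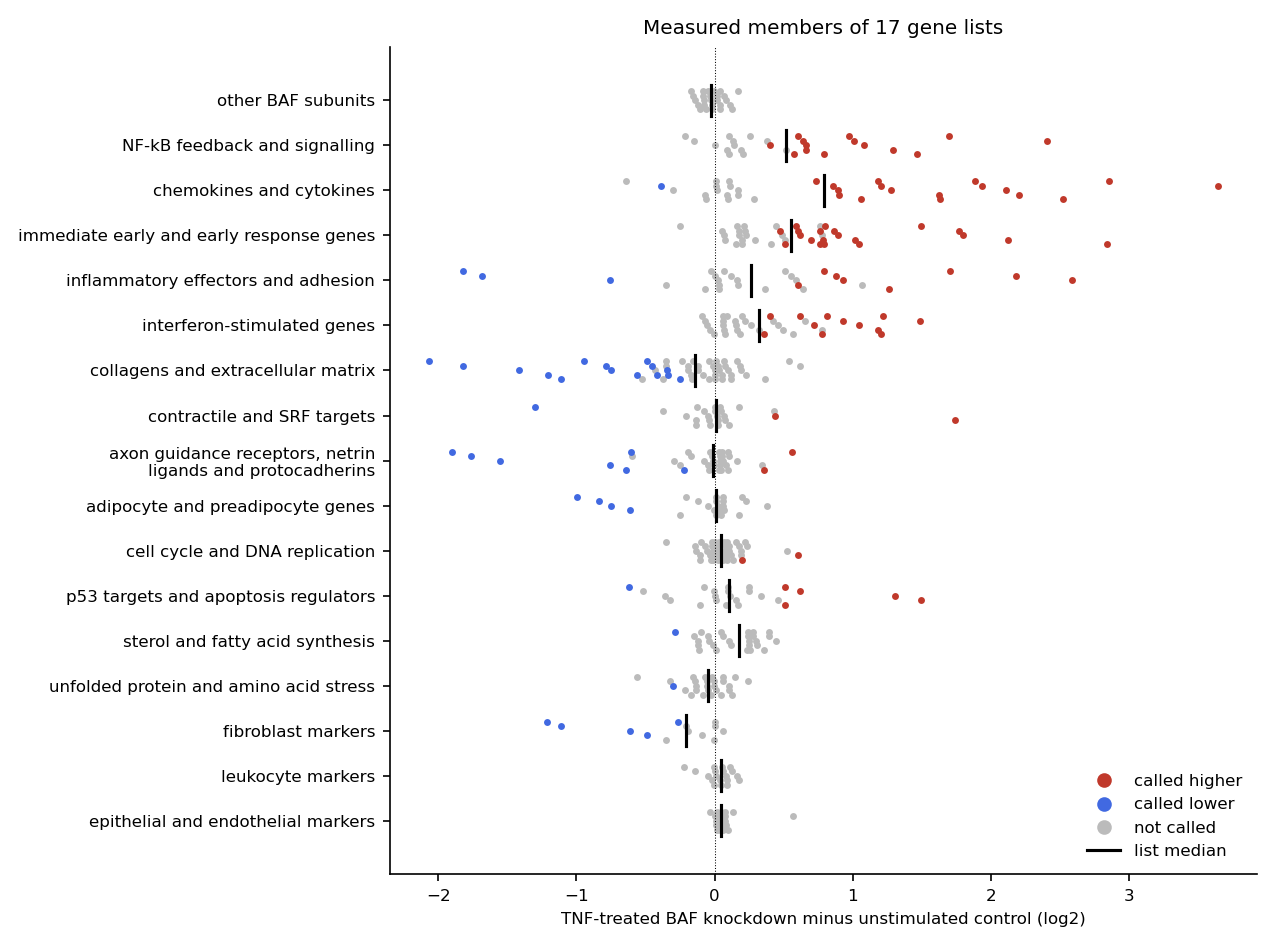
Difference between TNF-treated BAF-knockdown and unstimulated control cells (x axis, log2) for each measured member of 17 gene lists (y axis), coloured by call, with a black bar at the list median. Medians are 0.51, 0.79 and 0.55 for NF-kB feedback genes, chemokines and cytokines, and immediate early genes, and -0.14 for matrix genes, while leukocyte markers and epithelial and endothelial markers have a median of 0.05 each.

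The promoters printed above belong to windows that could be read for 294 of the 390 genes that rose, 506 of the 662 that fell and 15426 of all 19698 tested, each from 250 bases before to 50 after the start. The NF-kB consensus was found on either strand in 35 windows of genes that rose, or 11.9%, in 27 of genes that fell, or 5.34%, and in 733 of all, or 4.75%. With only the 250 bases before the start these shares were 10.5%, 4.55% and 4.15%. The looser NF-kB-like pattern, GGG and CC with any 5 bases between them, contains every consensus match and was in 71.1%, 69.4% and 58.7% of the windows, so it separated the genes less. The letters TATAAA were in 10.2%, 9.09% and 12.1%, and the AP-1 site TGACTCA in 4.76%, 5.73% and 4.55%. Median GC content was 62.7%, 62.5% and 57.7%, and the median ratio of observed to expected CpG dinucleotides 0.73, 0.68 and 0.63. These shares are descriptions of the windows and carry no test.

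By list, the consensus lay in 10 of 23 windows of NF-kB feedback and signalling genes, in 8 of 20 of chemokines and cytokines, in 6 of 30 of immediate early genes and in 4 of 28 of interferon-stimulated genes. It lay in 3 of 18 windows of inflammatory effectors and, in lists where no gene was called higher, in 3 of 16 of epithelial and endothelial markers and 3 of 22 of sterol and fatty acid genes. It lay in 1 of 33 windows of matrix genes, in 0 of 32 of guidance receptors and protocadherins and in 0 to 2 windows of each remaining list. Other named genes that rose and held a match were Ccl20 (80 to 71 bases before the start), Nfkbie (106 to 97 before), Irf1 (13 to 4 before) and Gbp5 (77 to 68 before), and in Nr4a1 the match spanned the start. Named genes that rose without a match included Lif, Egr2, Csf2, Adm, Cldn1, Rgs16, Birc3, Trim30a, Gbp7, Ankrd1, Srf, Btg2, Plk3, Gadd45a and Cdk6.

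Called genes also lay next to each other in the order of tested genes along the RefSeq chromosomes, given as a description. There were 28 runs of neighbouring genes that all rose, with 60 genes, and 45 runs that all fell, with 98 genes. Runs also arise where called genes lie in random order, and their number under that was not tested. Some runs hold genes of 1 family, in which probes may be shared. The longest run of rises held 5 genes on chromosome 3, Gbp5, Gbp7, Gbp3, Gbp2b and Kyat3, of which the first 4 encode guanylate-binding proteins. Gbp2b, chosen here after its value was seen, rose by 1.79 ± 0.16 and stood at 8.12, 7.96 and 8.15 in unstimulated and at 9.90, 9.31 and 10.39 in knockdown arrays. Chemokine pairs that rose together were Ccl2 with Ccl7 on chromosome 11, and Cxcl1 with Cxcl2 and Cxcl10 with Cxcl11 on chromosome 5. Next to Cldn1 on chromosome 16 lay P3h2, a collagen prolyl hydroxylase gene chosen in the same way, at 7.90, 8.73 and 7.68 in unstimulated and 10.19, 9.59 and 10.14 in knockdown arrays (1.87 ± 0.27), and at 0.31 ± 0.27 above unstimulated cells with TNF alone. Among the falls, the longest run held 5 genes of the protocadherin beta cluster on chromosome 18, Pcdhb14 to Pcdhb18, with differences from -0.52 (Pcdhb15) to -0.89 (Pcdhb17). These genes are so alike that probes can be shared, and without the block 1 of them, Pcdhb17, was called (limma adjusted p = 0.0374). Prl2c5 and Nid1 stood in a run of 4 on chromosome 13, and Col6a2 lay next to Col6a1 on chromosome 10 (-0.34 and -0.42).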

How the data were processed

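RNA of mouse 3T3 fibroblasts was hybridised to 9 Affymetrix mouse Gene 1.0 ST arrays, 3 in each of 3 groups. The deposited values are log2 signals that the authors obtained by RMA, which corrects background, quantile normalises arrays and summarises probes per transcript cluster. The version of that software, and the build behind the array annotation, are not given in the sources used here. Arrays give no read depth, so their number limits the precision. According to the methods, replicates were made independently on different days.

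Of 27024 transcript clusters, 21319 had 1 gene symbol, 1430 several and 4275 none. The cluster with the highest mean was used for each of 930 genes with more than 1, which left 19698 genes. Those without a single symbol went into a separate test. Limma 3.58.1 (R 4.3.3) gave all tests (1 mean per group over 9 arrays, replicate number as a block, 4 residual degrees of freedom, two-sided), with Benjamini-Hochberg adjustment and a threshold of 0.05. The block was used because the comparison is paired by number. Deviations from group means correlated at 0.21 to 0.724 between arrays of the same number (9 pairs) and at -0.566 to 0.0111 between others (18 pairs). Such deviations cancel out within a group, so positive values for the same number push the others down, and the latter are no separate support. The script was tested on simulated data.

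The comparison and the 18 gene lists (531 entries, 504 measured) were chosen with earlier results of these data known, and lists share genes. The other entries were not analysed here. Named genes are the 15 largest rises and 15 largest falls among called genes whose 3 knockdown arrays lay beyond the 3 unstimulated ones, Smarca4, Smarca2, and up to 4 members per list, without predicted genes. Other names are said to be chosen after their values were seen, or complete a list's called members. Promoter windows came from RefSeq (GRCm38.p6). The methods' t-test is Student's test with a difference over 0.35. Alternatives covered the block, arrays, weights, centring, dim genes, clusters, the variance prior and that test. Motifs were searched on both strands, and the NF-kB consensus was added after seeing the data.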

Additional observations from a re-analysis of the deposited data

Results flagged for a closer look

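Transcript clusters that name several genes or none took no part in the comparisons above and were tested apart, because no single gene can be given for them. Of these 5705 clusters, 4 were called higher (0.0701%) and 16 lower (0.280%) in TNF-treated knockdown than in unstimulated control cells, with differences from -3.19 to 1.05 on the log2 scale. The lowest value lay below the largest fall of any named gene.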

How the results depend on the processing

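Every named gene kept its direction under the alternatives tried. Calls without the replicate block numbered 102 higher and 118 lower, and 9 of the 30 largest rises and falls lost their call. With only the 6 arrays compared the counts were 128 and 215. The methods' t-test gave 233 and 289 at an unadjusted p under 0.05, and 3 and 0 after adjustment, where Smarca4 (-1.15) had an adjusted p of 0.24. A difference over 0.3 alone gave 581 and 769. Counts stayed within 1.5 times the reported ones with array weights, median centring, no dim genes, the mean over clusters and a variance trend. Leaving out 1 array gave 148 to 697 genes higher and 236 to 1048 lower. Without all arrays numbered 1, 2 or 3 the counts were 11, 490 and 96 higher and 11, 596 and 222 lower. Without numbers 2 and 3 Smarca4 differed by -1.27 and -1.04. In the fit without number 1 it (-1.15) had an adjusted p of 0.0956, and 21 of the 30 largest changes lost their call. Without dim genes the median of inflammatory effectors was 0.44. With 1 array or all arrays of a number left out, the medians ranged from 0.64 (without number 1; 0.65 without unstimulated array 1) to 0.84 for chemokines and cytokines, from 0.38 (without knockdown array 3; 0.39 without number 3) to 0.60 for NF-kB feedback genes and from -0.020 (without knockdown array 1; -0.0083 without number 1) to 0.073 for leukocyte markers, whose sign therefore is not settled. Nor is that of the medians of sterol and fatty acid genes (-0.02 to 0.24 over the alternatives), epithelial and endothelial markers (-0.02 to 0.09), and the contractile, guidance, adipocyte, cell cycle and unfolded protein stress lists. The cause was not tested. Dim genes near background have uncertain folds.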
